A study of Mus musculus with 39 samples.

Results

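Livers of mice that received only a dosing vehicle were compared by what the vehicle was: 0.5% methylcellulose against deionised water. All arrays labelled as a vehicle were taken, which gave 15 of the 39 arrays of the series. The PPARα-null mice gave 4 arrays with 0.5% methylcellulose and 4 with water, and wild-type mice gave 3 with 0.5% methylcellulose and 4 with water. All 15 came from adult males of the 129SV background, dosed by gavage on 7 consecutive days, so the groups share the strain, the sex and the gavage itself. In the series methylcellulose was the vehicle of pirinixic acid, a PPARα activator that the labels know by a Wyeth code, and water was that of PFOA (perfluorooctanoic acid, ammonium salt), so the pair is the difference between the controls of these compounds. The water arrays are titled 0 mg/kg PFOA. The labels do not say which part of Ppara the null allele lacks, and they give neither the hour of dosing or killing nor whether food was withheld.

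Methylcellulose is a cellulose ether that thickens water, holds poorly soluble compounds in suspension, and is not taken up from the gut. PPARα is the liver's receptor for fatty acids and switches on fatty acid oxidation in fasting. The liver also holds a circadian clock. In it the activators encoded by Arntl (BMAL1), Clock and Npas2 bind E-boxes and switch on Per and Cry genes, whose proteins then block the activators, while the repressors of the Nr1d family (REV-ERB) bind ROR elements (ROREs) and hold Arntl down. Arntl and Dbp transcripts therefore peak at opposite times of day, and Dbp, Tef and Nfil3 proteins pass the rhythm on through D-boxes. Cholesterol synthesis in mouse liver follows feeding through SREBP-2, which binds sterol response elements (SREs).

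The promoters below were picked after the values were seen. They are shown because the signals of these genes differed between the vehicles without passing the test, and because the letters of a clock or sterol element lie near their start sites. Each sequence is a RefSeq promoter window of build GRCm38.p6, from 250 bases before to 50 after the annotated start, 5′ to 3′ on the gene's strand. The windows are Arntl at chr7:113207261-113207560 on the plus strand, Nfil3 at chr13:52980990-52981289 on the minus strand, Per1 at chr11:69098699-69098998 on the plus strand, Tef at chr15:81802423-81802722 on the plus strand and Hmgcs1 at chr13:119690101-119690400 on the plus strand. Capitals mark the RORE core TAGGTCA or its complement in Arntl and Nfil3, the E-box CACGTG in Per1 and Tef, the D-box TTATGNAA in Per1, and the SRE TCACCCCAC in Hmgcs1.
Arntl: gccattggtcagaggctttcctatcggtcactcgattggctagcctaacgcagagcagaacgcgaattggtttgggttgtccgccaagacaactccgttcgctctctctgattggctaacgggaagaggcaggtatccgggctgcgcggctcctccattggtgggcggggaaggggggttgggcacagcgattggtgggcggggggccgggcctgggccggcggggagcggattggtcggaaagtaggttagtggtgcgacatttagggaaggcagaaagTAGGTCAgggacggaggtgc
Nfil3: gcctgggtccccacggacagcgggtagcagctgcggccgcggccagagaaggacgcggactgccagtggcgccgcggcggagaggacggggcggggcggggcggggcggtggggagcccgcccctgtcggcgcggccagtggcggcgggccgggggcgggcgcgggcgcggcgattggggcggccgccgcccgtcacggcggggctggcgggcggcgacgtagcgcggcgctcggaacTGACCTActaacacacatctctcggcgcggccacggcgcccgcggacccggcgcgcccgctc
Per1: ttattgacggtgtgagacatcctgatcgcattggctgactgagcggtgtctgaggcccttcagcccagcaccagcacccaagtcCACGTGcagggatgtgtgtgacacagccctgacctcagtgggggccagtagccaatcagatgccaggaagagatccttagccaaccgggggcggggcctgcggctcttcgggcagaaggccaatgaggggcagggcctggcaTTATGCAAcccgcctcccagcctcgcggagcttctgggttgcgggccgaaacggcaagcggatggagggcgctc
Tef: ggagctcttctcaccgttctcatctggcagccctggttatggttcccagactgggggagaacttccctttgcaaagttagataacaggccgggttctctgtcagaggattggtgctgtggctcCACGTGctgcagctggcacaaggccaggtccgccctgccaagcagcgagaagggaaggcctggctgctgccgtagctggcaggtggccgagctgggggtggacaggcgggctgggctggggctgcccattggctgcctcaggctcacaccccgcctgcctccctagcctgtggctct
Hmgcs1: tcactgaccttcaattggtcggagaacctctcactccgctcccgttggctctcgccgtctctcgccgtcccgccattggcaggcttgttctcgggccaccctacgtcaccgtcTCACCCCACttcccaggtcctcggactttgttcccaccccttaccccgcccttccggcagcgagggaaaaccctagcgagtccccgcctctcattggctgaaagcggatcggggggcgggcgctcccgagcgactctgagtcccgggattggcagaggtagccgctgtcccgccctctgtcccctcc
Both strands were searched. Among all 32851 RefSeq promoter windows of this length, 2.61% hold the RORE core, 7.15% the E-box, 3.38% the D-box and 0.551% the SRE letters. Of 10 core clock genes with a window, Arntl alone held the RORE core, Cry1 and Per1 held the E-box, and Per1 alone held the D-box. Of 10 cholesterol genes with a window, Hmgcs1 alone held the SRE letters, 4 held the E-box and Dhcr7 alone held the RORE core. The letters did not sort the genes by direction: Per1 and Tef hold the E-box and had mean effects of 1.17 and 1.00, while Cry1, Dhcr7 and Insig1 hold it too and had -0.25, -0.82 and -0.49. No search result bears on what bound these promoters in the livers, which was not measured.

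The values are log2 signals as deposited, and the arrays, which carry 1 probe for most genes, resembled each other closely. Over 25295 probes the correlation between 2 arrays had a median of 0.961 within a group (21 pairs) and of 0.956 between the vehicles of 1 genotype (28 pairs). By 31 probes the arrays of the series separate into a pair of sets, which no label mentions. Set A held 1 of 4 null methylcellulose and 3 of 4 null water arrays, and 1 of 3 wild-type methylcellulose and 2 of 4 wild-type water arrays. Arrays of the same set correlated with a median of 0.964 and of different sets 0.953. A further array-wide measure, the silent-gene index, is the mean of 582 probes for receptors and keratin-associated genes not used by liver. In null mice it was 8.93 ± 0.12 with methylcellulose and 8.76 ± 0.03 with water (SD, n = 4 each; exact two-sided permutation p = 0.0286, the smallest possible here). In wild type it was 8.76 ± 0.01 with methylcellulose (SD, n = 3) and 8.98 ± 0.13 with water (SD, n = 4; exact two-sided permutation p = 0.0571). Adjusted over 4 such tests both p-values were 0.114. The index thus differed in opposite directions in the 2 genotypes, and its part in the results below was tested only through the fits that carry it. One treated array, labelled wild type with PFOA at 1 mg/kg, replicate 3, goes against its label in PPARα targets. It enters the estimate of the spread, the index covariates and the relations over the treated arrays, which are also given without it. The files used here give no detection calls. At 13 of 68 genes described below the mean of at least 1 vehicle group lay below that group's silent-gene index, so a difference there may be only a bound. For these, a bounded difference is given, in which every array below its own index was first raised to it. The index itself differed between the vehicles, by 0.16 in null and -0.22 in wild type. A bounded difference can therefore carry part of that shift.

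No probe passed for methylcellulose against water in any of the 3 direct comparisons, by limma at an adjusted p under 0.05 (Benjamini-Hochberg over all 25295 probes). In null mice the share called was 0%, with 2931 probes (11.6%) at an unadjusted p under 0.05, 1208 of them higher (4.78%) and 1723 lower (6.81%) with methylcellulose. In wild type the share called was 0%, with 2191 probes (8.66%) at that unadjusted limit, 939 higher (3.71%) and 1252 lower (4.95%). For the mean effect over both genotypes, with genotype as a block, the share called was 0%, with 1221 probes (4.83%) at the unadjusted limit, 516 higher (2.04%) and 705 lower (2.79%). The smallest adjusted p was 0.0953 in null, 0.335 in wild type and 0.789 for the mean effect. The median difference over all probes was -0.07 in null, 0.04 in wild type, -0.02 for the mean effect and -0.13 for null minus wild type. The size that these arrays could show was limited. The median half-width of a probe's 95% interval was log2 0.76 in null, 0.83 in wild type and 0.57 for the mean effect. The null and wild-type differences had a correlation of -0.24 across probes, given as a description, since probes are not independent replicates and share the arrays. Every gene value below is therefore a measured difference that did not pass the adjusted test. P-values are unadjusted unless they are called adjusted, and the adjusted p of every mean effect was 0.789 or more.

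Genes of the circadian clock differed in 2 blocks, neither of which passed the adjusted test. The activators had lower signals with methylcellulose. Arntl read 12.43, 11.94, 8.39 and 8.22 in null mice with methylcellulose, against 12.30, 13.48, 13.57 and 12.15 with water. Wild-type livers read 9.81, 9.09 and 7.53 with methylcellulose, against 9.22, 9.18, 13.59 and 12.18 with water. The low and high values of Arntl were not sorted by vehicle alone: 2 wild-type water arrays were as low as the methylcellulose arrays, and 1 null methylcellulose array (12.43) lay among the water arrays, with another (11.94) just below the lowest of them. Both pairs of groups overlap. The mean effect was -2.45 ± 0.83 on the log2 scale (SE; limma, unadjusted p = 0.0058, adjusted p = 0.914; 7 arrays against 8), or 5.45-fold lower. Its 95% interval ran from -4.13 to -0.76.

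Npas2, a partner of BMAL1 related to CLOCK, averaged 8.01 ± 0.50 in null mice with methylcellulose and 9.95 ± 0.92 with water (SD, n = 4 each). Its null groups did not overlap, since the highest methylcellulose array stood at 8.61 and the lowest water array at 8.73; 4.48% of all probes were separated in that way in null mice. In wild type Npas2 averaged 7.84 ± 1.74 with methylcellulose and 9.29 ± 1.06 with water (n = 3 and 4), and these groups overlap. Clock, the histone acetyltransferase that pairs with BMAL1, had a mean effect of -1.02 ± 0.38, and Npas2 of -1.71 ± 0.61 (SE; limma unadjusted p = 0.011 and 0.00879). With methylcellulose the means of both genes lay below the silent-gene index in both genotypes. Their bounded differences were smaller, -0.43 in null and -0.44 in wild type for Clock, and -1.03 in null and -0.33 in wild type for Npas2. Nfil3, a repressor at D-boxes whose window above holds the RORE core, had a mean effect of -0.68 ± 0.29.

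**Figure D1:**
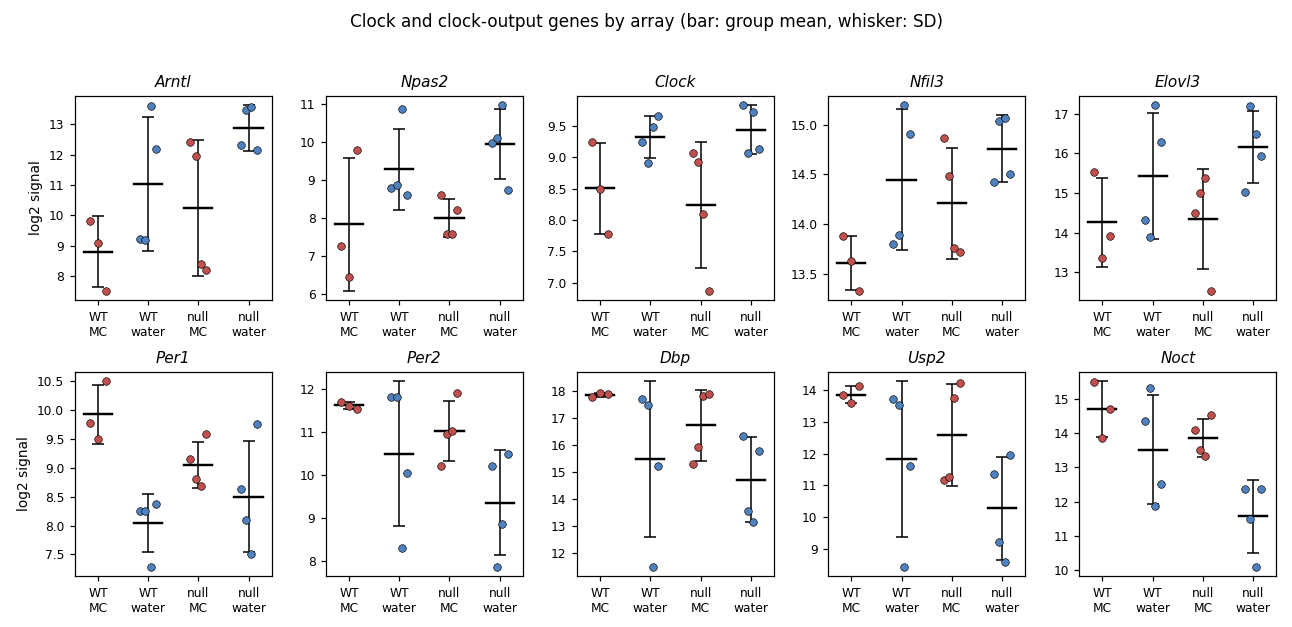
Log2 signal of 10 clock and clock-output genes on each of the 15 vehicle arrays, with methylcellulose (MC, red) left of water (blue) for wild type (WT) and PPARα-null; bars are group means and whiskers SDs, on separate axes per gene. Arntl, Npas2, Clock, Nfil3 and Elovl3 have lower means with methylcellulose in both genotypes, and Per1, Per2, Dbp, Usp2 and Noct higher means, with most groups overlapping.

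The repressor arm ran the other way. Per1, a period protein that blocks BMAL1, read 9.79, 9.50 and 10.50 in wild type with methylcellulose, against 8.26, 8.25, 7.29 and 8.37 with water. All 3 methylcellulose arrays lay above all 4 water arrays in wild type, as they did at 4.43% of all probes. In null mice Per1 read 9.15, 8.81, 8.68 and 9.58 with methylcellulose, against 8.64, 8.10, 7.50 and 9.76 with water, so the null groups overlap. The mean effect of Per1 was 1.17 ± 0.39 (SE; limma unadjusted p = 0.00544), and the wild-type difference was 1.89 (unadjusted p = 0.00203, adjusted p = 0.541). The water means of Per1 lay below the silent-gene index, and its bounded differences were 0.15 in null and 0.95 in wild type. Per2, the second period gene, averaged 11.02 ± 0.70 in null mice with methylcellulose and 9.35 ± 1.23 with water, and 11.62 ± 0.08 in wild type with methylcellulose and 10.50 ± 1.69 with water (SD, n = 4, 4, 3 and 4). Its mean effect was 1.42 ± 0.54 (unadjusted p = 0.0127). Other negative regulators showed little. The cryptochrome Cry1 had a mean effect of -0.25 ± 0.37, and the REV-ERB genes Nr1d1 and Nr1d2 of 0.06 ± 0.25 and 0.40 ± 0.34 (SE).

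Of 12 tested genes on the core clock list, 2 were higher (Per1 and Per2) and 3 lower (Arntl, Npas2 and Clock) at an unadjusted p under 0.05 in the mean effect, beside 2.04% and 2.79% of all probes; none passed after adjustment. The list's median was -0.11, against -0.02 for all tested probes. On the output list 6 of 12 were higher and 1 lower at that limit, and the median was 0.45.

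Dbp, an activator at D-boxes with one of the steepest daily rhythms in liver, read 15.28, 15.91, 17.80 and 17.86 in null mice with methylcellulose, against 16.31, 13.56, 13.15 and 15.78 with water. Wild-type livers read 17.75, 17.91 and 17.86 with methylcellulose, against 17.69, 17.47, 11.47 and 15.20 with water. The wild-type methylcellulose arrays were tightly grouped at the top, and the wild-type water arrays spanned nearly the whole range of the gene. The mean effect was 2.18 ± 0.77, or 4.54-fold higher (limma unadjusted p = 0.00819, adjusted p = 0.914). Usp2, a deubiquitinase of clock proteins, had a mean effect of 2.20 ± 0.78, the D-box activator Tef of 1.00 ± 0.34, and the kinase Wee1, which holds cells before mitosis, of 1.53 ± 0.64 (SE). The water means of Wee1 lay below the silent-gene index, and its bounded differences were 0.59 in null and 0.94 in wild type. Wee1, Nfil3, Sqle, Hmgcs1 and Msmo1 were singled out after their values were seen; the other genes named follow the rule given with the processing.

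Noct, nocturnin, a circadian phosphatase of NADPH, had null groups that did not overlap, as at 3.37% of all probes on the higher side. It read 14.08, 13.51, 13.35 and 14.54 with methylcellulose, against 12.36, 11.49, 10.09 and 12.36 with water. The null difference was 2.30 (limma unadjusted p = 0.00453, adjusted p = 0.347) and the mean effect 1.78 ± 0.55 (unadjusted p = 0.00279). In wild type the Noct groups overlap. Elovl3, an elongase of very long fatty acids that follows the clock in male mouse liver, averaged 14.35 ± 1.26 in null mice with methylcellulose and 16.16 ± 0.91 with water, and 14.26 ± 1.12 in wild type with methylcellulose and 15.43 ± 1.58 with water. Its mean effect was -1.51 ± 0.58. Alas1, which makes the first intermediate of heme and is itself under clock and fasting control, did not overlap in wild type: it read 16.23, 16.58 and 17.44 with methylcellulose, against 15.39, 15.99, 14.52 and 15.07 with water. Its mean effect was 1.19 ± 0.38 (unadjusted p = 0.00366, adjusted p = 0.875).

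Arntl and Dbp moved against each other from array to array, whatever the vehicle. Over the 15 vehicle arrays Pearson's r was -0.894 and Spearman's rho -0.936, each with a permutation p of 2e-05, the smallest that 100000 permutations give (6e-05 adjusted over 3 relations). The permutations ignored the 4 vehicle groups, so these p-values also take in the differences between group means. Without the 2 arrays farthest from the median of Arntl r was -0.900 (n = 13). Within array set A it was -0.918 (n = 7) and within set B -0.930 (n = 8). After each group's mean was removed r was -0.855 over the vehicle arrays and -0.849 over the 24 treated arrays (-0.835 over 23 without the array that goes against its label), so the opposition was present inside groups of mice with the same genotype and vehicle. The clock index, Dbp minus Arntl centred over the series, spread widely in each group. It ran from -2.89 to 3.89 in null with methylcellulose and from -6.16 to -1.73 in null with water, and from 2.20 to 4.59 in wild type with methylcellulose and from -7.86 to 2.73 in wild type with water. With that index as a covariate, which by construction takes out most of Arntl and Dbp, the mean effects were -0.05 for Arntl, -0.05 for Dbp, -0.07 for Usp2, 0.17 for Per2, 0.86 for Per1, -0.73 for Npas2 and 0.57 for Noct. Within array set A the mean effect was -0.55 for Arntl and 0.72 for Dbp, and within set B -3.45 and 3.51. Set A holds 1 methylcellulose array of each genotype, both numbered replicate 1, and set B 1 null water array, so array set and single mice cannot be told apart in values within a set.

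**Figure D2:**
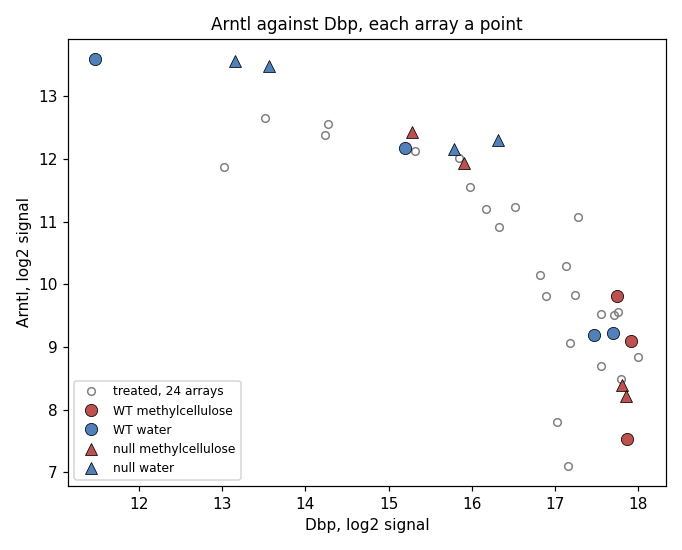
Log2 signal of Arntl (vertical axis) against Dbp (horizontal axis) on all 39 arrays; filled red symbols are methylcellulose, filled blue symbols water, circles wild type, triangles PPARα-null, and open grey circles the 24 treated arrays. Arrays lie along a falling band, with r = -0.894 over the 15 vehicle arrays, and the vehicle groups spread along it rather than off it.

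Genes of cholesterol synthesis had lower signals with methylcellulose. Of 13 tested genes on the list, 11 were lower and none higher at an unadjusted p under 0.05 in the mean effect (2.79% and 2.04% of all probes), all 13 had a value below 0, and the median was -0.53. None passed after adjustment. The same limit was reached by 2 of 13 in null mice (median -0.31), beside 6.81% of all probes, and by 7 of 13 in wild type (median -0.75), beside 4.95%, all lower. Hmgcs1, which makes HMG-CoA for the pathway, read 17.60, 17.21, 16.64 and 15.22 in null mice with methylcellulose, against 18.62, 16.39, 17.43 and 16.90 with water. Wild-type livers read 16.07, 15.47 and 15.92 with methylcellulose, against 16.42, 16.77, 18.02 and 16.67 with water. All 3 wild-type methylcellulose arrays lay below all 4 wild-type water arrays (3.52% of all probes), while the null groups overlap. Its mean effect was -0.89 ± 0.37 (SE; limma unadjusted p = 0.0214, adjusted p = 0.965).

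The later steps of the pathway ran the same way. Dhcr7, the last reductase of cholesterol synthesis, had the smallest p of the list, with a mean effect of -0.82 ± 0.26 (limma unadjusted p = 0.00317, adjusted p = 0.841). It averaged 13.19 ± 0.79 in null mice with methylcellulose and 14.12 ± 0.69 with water, and 12.78 ± 0.62 in wild type with methylcellulose and 13.48 ± 0.46 with water. The mevalonate enzymes Mvd and Pmvk had mean effects of -0.99 ± 0.34 and -0.63 ± 0.22, and the squalene epoxidase Sqle of -0.88 ± 0.35. Msmo1, a sterol demethylase, and Insig1, the protein that holds SREBP in the endoplasmic reticulum, differed mainly in wild type. Msmo1 read 16.75, 15.73 and 15.79 in wild type with methylcellulose, against 16.90, 17.50, 18.05 and 17.24 with water. Insig1 read 17.03, 17.24 and 16.76 with methylcellulose, against 17.40, 17.98, 18.28 and 17.96 with water. Neither gene's wild-type groups overlap, and their wild-type differences were -1.33 and -0.90 (unadjusted p = 0.00504 and 0.00201, adjusted p = 0.541 for both). In null mice the groups of both genes overlap. The test of null against wild type gave limma adjusted p-values of 0.37 for Msmo1 and 0.317 for Insig1.

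Hmgcs1 was high on the arrays on which Arntl was high. Pearson's r was 0.705 (permutation p = 0.0035, 0.00525 adjusted over 3 relations) and Spearman's rho 0.732 (p = 0.00284, 0.00426 adjusted). Hmgcs1 was singled out after its values were seen, and the permutations ignored the 4 groups. These p-values therefore also take in the differences between group means, which had the same direction in both genes. No test was run with the group means removed. Without the 2 arrays farthest in Arntl r was 0.605, within set A 0.654 and within set B 0.681, and after the removal of group means it was 0.539 over the vehicle arrays and 0.577 over the 24 treated arrays (0.611 over 23 without the array that goes against its label). With the clock index as a covariate the mean effect of Hmgcs1 was -0.27, of Dhcr7 -0.44, of Mvd -0.48 and of Msmo1 -0.50. Within array set A the mean effect was -0.25 for Hmgcs1 and 0.24 for Sqle, and within set B -0.99 and -1.23.

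**Figure D3:**
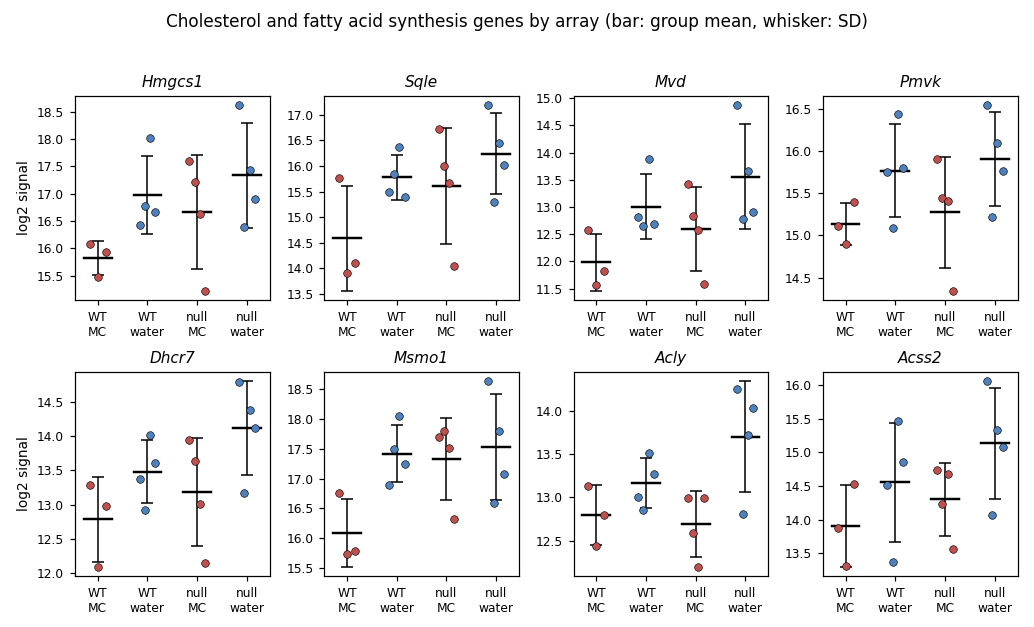
Log2 signal of 6 cholesterol synthesis genes and of Acly and Acss2 on each of the 15 vehicle arrays, methylcellulose (MC, red) left of water (blue) for wild type (WT) and PPARα-null; bars are group means and whiskers SDs, on separate axes per gene. Means are lower with methylcellulose for all 8 genes in both genotypes, and in wild type Hmgcs1, Mvd and Msmo1 have no overlap between the vehicles.

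Fatty acid synthesis shared part of the pattern. Of 17 tested genes 4 were lower and none higher at the unadjusted limit in the mean effect, with a median of -0.12. These were Acly, which makes cytosolic acetyl-CoA from citrate (-0.72 ± 0.27), Acss2, which makes it from acetate (-0.75 ± 0.30), Fasn, the fatty acid synthase (-0.62 ± 0.28), and Srebf1, the SREBP-1 gene (-0.46 ± 0.18). Srebf1 did not overlap in null mice, where it read 16.89, 17.22, 17.41 and 16.89 with methylcellulose, against 17.65, 17.41, 17.50 and 17.45 with water. The margin there was less than 0.01 between the highest methylcellulose and the lowest water array. Scd1, the stearoyl-CoA desaturase, was more variable, with a mean effect of -0.96 ± 0.56 (unadjusted p = 0.0948), of -2.06 within set A and of 0.49 within set B. Per3 and Saa1 were to be reported and are not analysed here, since no probe with a value on every array names them.

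Among genes of fasting, glucose and glycogen, 1 of 18 was higher and 1 lower at the unadjusted limit, and the list's median was 0.03. The higher one was Gys2, the liver glycogen synthase, which averaged 17.69 ± 0.68 in null mice with methylcellulose and 16.91 ± 0.17 with water, and 18.04 ± 0.38 in wild type with methylcellulose and 17.44 ± 0.47 with water. Its mean effect was 0.70 ± 0.21 (limma unadjusted p = 0.00246, adjusted p = 0.841), and 0.17 with the clock index. The lower one was Ppp1r3c, a targeting subunit of glycogen phosphatase, with a mean effect of -0.74 ± 0.28. In wild type it read 14.99, 14.91 and 14.99 with methylcellulose, against 15.31, 15.60, 15.95 and 15.85 with water, without overlap. Stbd1, which binds glycogen, had a mean effect of 0.70 ± 0.20 (unadjusted p = 0.0012). The fasting genes Pck1, the entry enzyme of gluconeogenesis, and Igfbp1 had mean effects of 0.44 ± 0.28 and 0.08 ± 0.52. Igfbp1 ranged from 15.86 to 17.93 in null mice with methylcellulose and from 16.15 to 17.03 with water, and from 13.83 to 15.37 in wild type with methylcellulose and from 13.76 to 16.13 with water.

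Ppara itself had the smallest unadjusted p of the higher genes named by the mean effect. It read 15.90, 15.86, 15.98 and 16.29 in null mice with methylcellulose, against 15.34, 15.31, 15.14 and 15.04 with water. In wild type it read 16.37, 16.74 and 16.84 with methylcellulose, against 16.11, 16.78, 15.62 and 16.29 with water. The null groups do not overlap and the wild-type groups do. The mean effect was 0.64 ± 0.16, or 1.56-fold (limma unadjusted p = 0.000315, adjusted p = 0.796), and the null difference was 0.80 (unadjusted p = 0.000756, adjusted p = 0.31). Signal was present in null livers, and no source used here places this probe against the deleted part, so it does not check the genotype. With the clock index as a covariate the mean effect of Ppara was 0.46.

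Targets of PPARα in fatty acid oxidation did not pass the test, and their values leaned differently in the genotypes. Of 25 tested genes, 10 had a value above 0 in null mice (median -0.08) and 23 in wild type (median 0.35), and for null minus wild type 19 had a value below 0 (median -0.31). Over all probes these medians were -0.07, 0.04 and -0.13, so the null median was near that of all probes. None of the 25 reached the unadjusted limit in null, in wild type or in the test between them. The treated array that goes against its label in PPARα targets enters the spread used there. In its group the SD was 2.11 for Ehhadh, 4.30 for Cyp4a14 and 2.72 for Fgf21. The list was not counted without that array, so its empty count may be due in part to this spread, which was not tested. In wild type 5 of 25 had every methylcellulose array above every water array, beside 4.43% of all probes. These were Acaa1b, Decr1, Cpt2, Ech1 and Plin2, named after their values were seen, with wild-type differences of 0.24 to 0.40. In null mice none of the 25 was without overlap. In the mean effect 1 was higher and none lower at the unadjusted limit (median 0.09). The one was Creb3l3, a fasting-induced transcription factor of liver (0.29 ± 0.14, unadjusted p = 0.0425). Ehhadh, a peroxisomal beta-oxidation enzyme, had a mean effect of -0.15 ± 0.38, the acyl-CoA thioesterase Acot1 of 0.14 ± 0.38, Pdk4, which holds back glucose oxidation, of -0.71 ± 0.65, the hormone Fgf21 of 0.30 ± 0.56 (below the silent-gene index in both null groups, with a wild-type difference of 0.82), and Angptl4, an inhibitor of lipoprotein lipase, of 0.82 ± 0.48. Cyp4a14, a fatty acid omega-hydroxylase, varied more between mice than between vehicles. It read 8.21, 7.15, 13.97 and 14.54 in null with methylcellulose, against 7.23, 12.53, 6.63 and 14.15 with water, and 11.73, 15.66 and 14.76 in wild type with methylcellulose, against 11.79, 12.78, 15.47 and 14.76 with water. Its mean effect was 0.61 with a 95% interval from -1.82 to 3.04, which holds large differences in either direction.

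The bile acid, CAR and PXR, and NRF2 lists each held 1 gene at the unadjusted limit in the mean effect, beside 4.83% of all probes in either direction. On the bile acid list 1 of 19 was lower at the unadjusted limit: Hsd3b7, a steroid dehydrogenase of bile acid synthesis, with a mean effect of -0.40 ± 0.14. Cyp7a1, the rate-limiting enzyme of that pathway, had a mean effect of 0.90 ± 0.60 (unadjusted p = 0.14), and a second probe of the gene gave 1.03. On the CAR and PXR list 1 of 18 was higher, Alas1. Cyp2b10, a cytochrome P450 induced through CAR, lay on opposite sides in the genotypes. It read 12.31, 13.08, 12.82 and 13.90 in null mice with methylcellulose, against 11.88, 12.15, 12.24 and 11.87 with water, with no overlap. In wild type it read 10.23, 11.05 and 11.17 with methylcellulose, against 10.28, 12.93, 13.13 and 12.78 with water, and 1 water array was as low as the methylcellulose arrays. The limma test of null against wild type gave 2.46 (unadjusted p = 0.00716, adjusted p = 0.153). On the NRF2 list 1 of 17 was lower, the glutathione transferase Gstm4 (-0.46 ± 0.19). Its null groups did not overlap, with 13.65 to 13.85 with methylcellulose and 14.26 to 14.45 with water.

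The other lists are given by their counts at the unadjusted limit in the mean effect, unless a genotype is named. That limit was reached by 2.04% of all probes on the higher side and 2.79% on the lower. Of 19 chaperones 4 were lower (median -0.10), with the smallest p at Pdia4, a disulfide isomerase (-0.33 ± 0.12). Of 15 interferon-inducible genes 2 were lower (median -0.15). In null mice 5 of 15 were lower at that limit (median -0.56), beside 6.81% of all probes, and 6 of 15 had every methylcellulose array below every water array, beside 4.48%. In wild type 2 of 15 were higher and none lower (median 0.09), beside 3.71% on the higher side, and no gene of the list was without overlap. Oasl1, an interferon-induced repressor of Irf7 translation in mice, had a mean effect of -1.27 ± 0.43, of 0.24 within set A and of -2.27 within set B. Its wild-type methylcellulose mean lay below the silent-gene index, and its bounded difference there was -0.26. On the list for the urea cycle and amino acid breakdown 3 of 28 were lower (median -0.11), of 21 cell cycle genes 2 were higher (median 0.12), and of 23 proteasome genes 1 was lower (median -0.10). The lists of glucocorticoid response (11 genes, median 0.06), immediate early genes (18, median -0.0046), iron and heme (12, median 0.05) and female-biased genes (11, median -0.04) each held 1 higher, and that of male-biased genes (12, median -0.05) 1 lower. No gene reached the limit on the lists of AhR targets (3 genes, median -0.07), acute phase (15, 0.05), complement and coagulation (28, -0.01), p53 targets (10, 0.05), oxidative phosphorylation (26, -0.05), ribosomal proteins (21, 0.05) and lipoproteins (13, -0.04). In null mice 5 of 23 proteasome genes were lower at that limit (median -0.19), beside 6.81% of all probes, and in wild type none was. Of 26 oxidative phosphorylation genes 6 had every null methylcellulose array below every null water array, beside 4.48% of all probes. None of the 26 reached the unadjusted limit in null. In wild type 1 of them had its methylcellulose arrays all above the water arrays and 1 all below. Hsd3b5, a male-specific steroid dehydrogenase, had a mean effect of -0.10 ± 0.50.

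**Figure D4:**
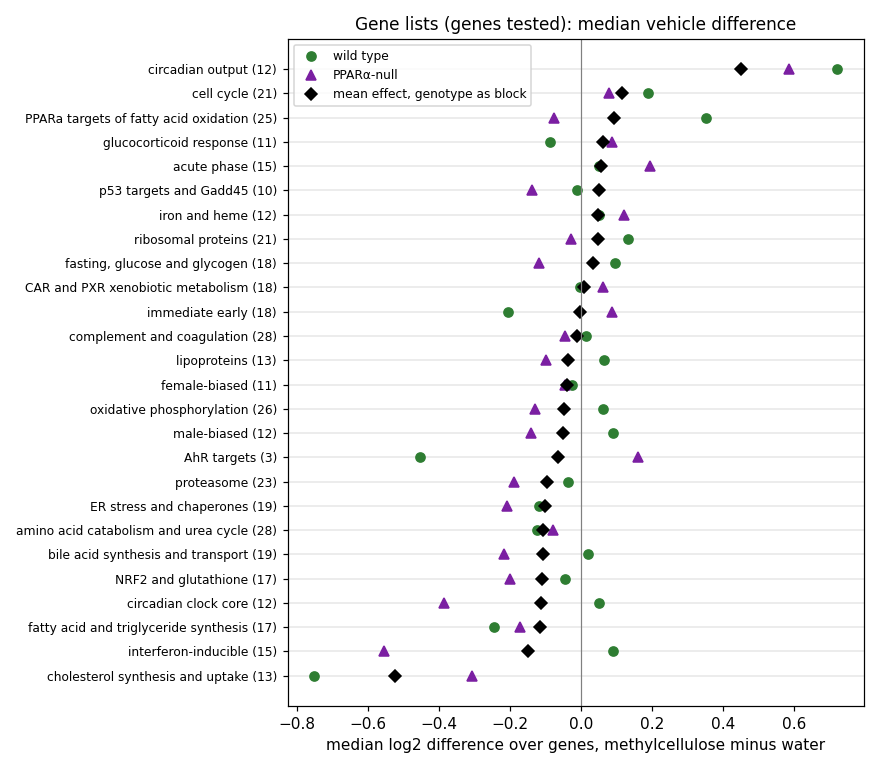
Median log2 difference, methylcellulose minus water, over the tested genes of 26 gene lists (number of genes in brackets), for wild type (green circles), PPARα-null (purple triangles) and the mean effect (black diamonds). The cholesterol list has the lowest median of the mean effect, -0.53, and the circadian output list the highest, 0.45.

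Markers of liver cell types and of neighbouring tissues held 1 gene at the unadjusted limit in the mean effect. Hepatocyte markers had a median mean effect of 0.03 over 6 genes, and their summed level, as the mean of the markers' log2 signals on an array, ran from 20.45 to 20.59 in null with methylcellulose, from 20.48 to 20.56 in null with water, from 20.35 to 20.63 in wild type with methylcellulose and from 20.41 to 20.57 in wild type with water. No marker reached the unadjusted limit in the mean effect on the lists of hepatocyte, Kupffer cell (10 genes, median 0.07), endothelial cell (11, 0.02), cholangiocyte (5, -0.47), lymphocyte (8, -0.33), neutrophil (5, 0.14), red blood cell (4, 0.08), pancreas acinar cell (8, -0.13), adipocyte (4, -0.07), intestine epithelium (4, 0.10) and kidney markers (4, -0.20). Of 8 stellate cell markers 1 was lower (median -0.09). The cholangiocyte median was of nearly the size of the cholesterol list's, at -0.56 in null and -0.31 in wild type. The summed level of these 5 markers ran from 8.69 to 9.63 in null with methylcellulose and from 9.40 to 9.98 with water, and from 9.20 to 9.91 in wild type with methylcellulose and from 9.45 to 9.81 with water. These levels are low, beside group means of 8.76 to 8.98 for the silent-gene index and levels of 14.72 to 16.75 for the cholesterol list. No bounded difference was taken for these markers. For lymphocyte markers the median was -0.15 in null and -0.40 in wild type, where 2 of 8 were lower at the unadjusted limit, beside 4.95% of all probes. Their summed level was low too, from 8.66 to 9.37 over the vehicle arrays. Kupffer cell markers leaned differently in the genotypes, with a median of -0.13 in null and 0.25 in wild type, beside -0.07 and 0.04 over all probes. In wild type 4 of 10 had every methylcellulose array above every water array, beside 4.43% of all probes. In null none was without overlap. For null minus wild type 9 of 10 had a value below 0 (median -0.29, beside -0.13 over all probes). At the unadjusted limit 2 of them were lower, beside 15.4% of all probes in either direction. The part of these markers in the results above was not tested. Fewer cells of a type and less RNA per cell cannot be told apart in whole liver.

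Outside the lists, the naming rule added genes with the smallest unadjusted p whose methylcellulose arrays all lay on 1 side of the water mean in each genotype. That condition was met by 452 probes on the higher side (1.79%) and 525 on the lower side (2.08%). Maff, a small bZIP partner of NRF2, had a mean effect of 1.40 ± 0.37 (limma unadjusted p = 0.000625, adjusted p = 0.81). It averaged 12.13 ± 0.99 in null with methylcellulose and 10.37 ± 1.33 with water, and 12.59 ± 0.44 in wild type with methylcellulose and 11.61 ± 0.84 with water. Timm13, a chaperone of mitochondrial import, had 1.48 ± 0.39 and the zinc-finger gene Zfp119a 0.53 ± 0.15. On the lower side were Tmem229b, a membrane protein (-0.90 ± 0.21, unadjusted p = 0.000151, adjusted p = 0.789), Kif18a, a kinesin of chromosome alignment (-1.47 ± 0.35), the zinc-finger gene Zfp870 (-1.10 ± 0.26) and Gngt1, a G protein gamma subunit of rod photoreceptors (-1.07 ± 0.29). Kif18a was the gene of these whose groups overlapped in neither genotype, with 6.80 to 8.45 in null with methylcellulose and 8.59 to 10.40 with water, and 8.11 to 8.52 in wild type with methylcellulose and 8.68 to 9.69 with water. Its methylcellulose arrays lay below the silent-gene index, and its bounded differences were -0.73 in null and -0.39 in wild type. Zfp870 lay below the index in 3 of the 4 groups, both null ones among them, and its bounded difference in wild type was -0.66. Timm13 lay below it with water, and its bounded differences were 1.05 in null and -0.01 in wild type. The higher value in wild type is thus not shown above the index of the water arrays, 8.98, which was 8.76 with methylcellulose.

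Within null mice alone, groups without overlap were found at 853 probes on the higher side (3.37%) and 1132 on the lower (4.48%). Dhdds, which makes dolichol for protein glycosylation, read 11.72, 11.46, 11.22 and 11.51 with methylcellulose, against 12.16, 12.29, 12.14 and 12.11 with water. Its null difference was -0.70 (limma unadjusted p = 5.85e-05, adjusted p = 0.253), the smallest unadjusted p among named genes in null. Lum, a collagen-binding proteoglycan of stellate cells, had -0.81, the interferon-inducible Ifi35 -0.50, Pdia4 -0.56, the nucleolar protein Npm1 0.53 and the embryonic globin gene Hbb-bh1 1.83. The null water mean of Hbb-bh1 lay below the silent-gene index, and its bounded difference was 1.04. A second probe of Npm1 gave a null difference of 0.13, so the probes disagree in size.

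Within wild type alone, groups without overlap were found at 1120 probes on the higher side (4.43%) and 890 on the lower (3.52%). Col6a2, a collagen VI chain, read 7.87, 8.66 and 8.37 with methylcellulose, against 9.05, 10.02, 10.13 and 10.36 with water, a difference of -1.59 (limma unadjusted p = 6.13e-05, adjusted p = 0.335). B4galt2, a galactosyltransferase, had -2.14 (unadjusted p = 0.000383). Its water replicate 1 read 7.81, within the 6.57 to 8.17 of the methylcellulose arrays, while the other 3 water arrays read 10.23 to 10.52. A second, dimmer probe of B4galt2 gave -0.92 in wild type. The methylcellulose means of both genes lay below the silent-gene index, and the bounded differences were -1.13 for Col6a2 and -1.23 for B4galt2. Without water replicate 1 Col6a2 was at -1.87 and B4galt2 at -2.78, and both passed. On the higher side Erbb2, a receptor tyrosine kinase, had 1.28 (bounded 0.52, its water mean lying below the index) and Noa1, a GTPase of mitochondrial ribosomes, 0.61.

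The vehicle difference was also compared between the genotypes. By limma 2 of 25295 probes (0.00791%) passed for null minus wild type, both with a higher difference in null, and 3889 (15.4%) had an unadjusted p under 0.05. No gene is named for either probe in the annotation used. Probe 324166 read 10.85, 10.44, 10.38 and 10.45 in null with methylcellulose, against 8.57, 8.15, 9.28 and 9.49 with water. In wild type it read 9.80, 8.90 and 9.07 with methylcellulose, against 10.23, 10.50, 10.26 and 10.57 with water. Groups overlap in neither genotype and the order is turned. The difference of differences was 2.78 ± 0.44 (SE, limma adjusted p = 0.00954), and for probe 734562 it was 2.27 ± 0.39 (adjusted p = 0.0259). Within each genotype the group means of the silent-gene index differed in the same direction as those of both probes. Wild-type water replicate 1 had its group's lowest index, 8.79. There probe 324166 read 10.23, like the other water arrays. Probe 734562 read 10.42 there, beside 9.88 to 10.34 with methylcellulose and 11.1 to 11.5 on the other water arrays. Null methylcellulose replicate 1 had its group's lowest index too, 8.79. There probe 324166 had its group's highest signal, 10.85, and probe 734562 read 11.35, within its group's 11.32 to 11.62. With the index as a covariate the difference of differences was 2.94 ± 0.51 for probe 324166 (adjusted p = 0.0606) and 1.43 ± 0.34 for probe 734562 (adjusted p = 0.949), and no probe passed.

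Named genes came close. Mef2d, a MADS-box transcription factor, had a difference of 1.58 between the genotypes and the potassium channel gene Kcnd3 one of 1.85. Cad, the enzyme that opens pyrimidine synthesis, had -1.70 and Msto1, a protein of mitochondrial distribution, -1.03 (limma adjusted p = 0.107 for all 4). Mef2d averaged 14.42 ± 0.34 in null with methylcellulose and 13.68 ± 0.12 with water, and 13.58 ± 0.11 in wild type with methylcellulose and 14.42 ± 0.46 with water. The number that passed depended on single arrays: it was 1083 without wild-type water replicate 1 and 399 without null methylcellulose replicate 1, each the array with the lowest silent-gene index of its group. It was 0 to 4 without any other single array that was left out.

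**Figure D5:**
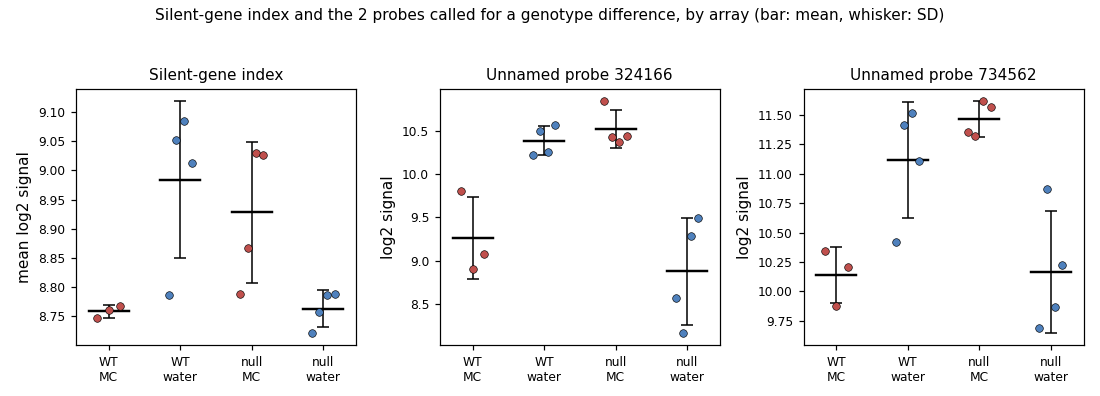
The silent-gene index (mean log2 signal of 582 probes) and the log2 signal of the 2 unnamed probes that passed the test between genotypes, on each of the 15 vehicle arrays, with methylcellulose (MC, red) left of water (blue) for wild type (WT) and PPARα-null; bars are group means and whiskers SDs. All 3 panels are higher with methylcellulose in null and lower with methylcellulose in wild type, and 1 wild-type water array has an index near the methylcellulose arrays.

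Treated null arrays give a view of the vehicles that shares no array with the vehicle groups, though vehicle and compound cannot be told apart in it. Null mice given pirinixic acid in methylcellulose (4 arrays) were set against null mice given PFOA in water (8 arrays, the mean of both doses). By limma 22 probes (0.087%) passed, 1 higher and 21 lower with pirinixic acid (0.00395% and 0.083%). The 1 was an unnamed probe. Cyp2b10 was among the lower (-2.78 ± 0.50, adjusted p = 0.00999), as was Gstm4 (-1.17 ± 0.22, adjusted p = 0.0141). Clock genes were mixed beside their mean effect of the vehicle. Arntl had -0.94 ± 0.99, Npas2 -0.74 ± 0.73, Per1 0.64 ± 0.45, Per2 0.90 ± 0.64, Dbp 0.93 ± 0.93, Usp2 1.31 ± 0.93 and Noct 0.46 ± 0.65, each with the sign of the mean effect, a smaller size and an unadjusted p of 0.162 or more. Clock had the other sign, at 0.25 ± 0.45, as did Cry1 at 0.41 and Nr1d1 at -0.28, and Nr1d2 was larger, at 0.53. Elovl3 had -2.13 ± 0.70 (unadjusted p = 0.00456, adjusted p = 0.492). On the cholesterol list 1 of 13 was lower at the unadjusted limit, beside 3.71% of all probes, and the median was -0.27. Hmgcs1 had -0.16 ± 0.44 and Dhcr7 -0.56 ± 0.31. Ppara had 0.28 ± 0.19 (unadjusted p = 0.136).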

How the data were processed

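Liver RNA was measured on Applied Biosystems mouse arrays, and the deposited table holds log2 values the authors had processed before deposit; no source used here gives their normalisation or software, and the base 2 was read from the range of the values, 4.85 to 21.55. Per the labels' protocols, RNA was extracted with TRI reagent and columns, used only with an integrity number of 8.5 or more, and labelled with digoxigenin after amplification. Columns were matched to samples by accession. Of 33012 probes, 14411 have 1 gene symbol, 247 several and 18354 none. Tests ran on the 25295 probes that lack no value.

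A linear model with a mean for each of the 10 groups was fitted to all 39 arrays in limma 3.58.1 (R 4.3.3; 29 residual degrees of freedom), with no further normalisation and two-sided Benjamini-Hochberg adjustment over all probes. For the mean effect, genotype and vehicle were additive in the 4 vehicle groups (30 residual degrees of freedom). Correlations and the silent-gene index were tested by permutation in SciPy 1.17.1 (Python 3.11.15). The fit was checked on simulated data. The series names 4 animals per group; p-values measure the spread between these arrays, whose number limits the precision.

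Genes were named by a rule: up to 10 in each direction past the adjusted test for each comparison, filled up to 5 by unadjusted p where fewer passed, with the brighter vehicle group above the median probe and every methylcellulose array on 1 side of the water mean; up to 4 members of each gene list by smallest p in the mean effect; and a set always reported, some of which are not reported here. For the comparison between genotypes up to 5 in each direction were taken without the condition on every array. Where a gene has several probes, the brightest stands for it. Names low in a ranking were left out, as were symbols that only number a clone. The comparison, the 26 pathway and 12 marker lists and the rule were chosen with earlier results of these data known. Array sets, the silent-gene index, other normalisations, a dim-probe filter, missing values, array weights, the replicate number as a block and the omission of single arrays were tried as alternatives. The clock index as a covariate and the array set together with the silent-gene index were added after seeing the data, as were the bounded differences of dim genes.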

Additional observations from a re-analysis of the deposited data

Results flagged for a closer look

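Arrays far from the rest of their group of 4 were looked for in 210 combinations of a named gene or index with a group, and 17 were found, where chance flags about 1 in 20. In null mice with methylcellulose these were the highest array of Nr1d2 (14.08, next 13.25), and the lowest of Erbb2 (7.19, next 9.12), B4galt2 (9.14, next 10.02) and Kcnd3 (12.56, next 13.23). In null mice with water they were the highest array of Wee1 (9.76, next 8.17), and the lowest of Gstm4 (14.26, next 14.44), Erbb2 (7.91, next 8.60) and B4galt2 (8.22, next 9.11). In wild type with water they were the highest arrays of Npas2 (10.87, next 8.87), Mvd (13.89, next 12.81), Srebf1 (18.50, next 17.80), Zfp870 (10.84, next 8.82) and Msto1 (12.26, next 11.56), and the lowest of Per1 (7.29, next 8.25), Cyp2b10 (10.28, next 12.78), B4galt2 (7.81, next 10.23) and Kcnd3 (12.28, next 13.03). These flags are not separate findings at every gene. In wild type with water those of Msto1, Cyp2b10, B4galt2 and Kcnd3 were all on replicate 1. In null with methylcellulose those of B4galt2 and Kcnd3 were on replicate 1 as well. Each of these arrays has the lowest silent-gene index of its group. In wild type with water the flags of Npas2, Mvd, Zfp870 and Per1 were all on replicate 3. That array has the highest silent-gene index of its group, 9.08, and the lowest clock index, -7.86.

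The vehicle difference itself differed between the genotypes, by the test of the difference, at probe 324166 (null minus wild type 2.78) and probe 734562 (2.27), neither of which has a gene name here. At 8 of the 68 named genes every methylcellulose array lay on 1 side of the water mean in null mice and on the other side in wild type, beside 13.1% of all probes. This share was not above that of all probes. Mef2d, Kcnd3, Cad and Msto1 among them were named for this difference. Col6a2, B4galt2 and Dhdds were named by a rule that already asked for 1 side in 1 genotype. The null-minus-wild-type values were 2.46 for Cyp2b10, 2.04 for Col6a2, 3.03 for B4galt2, -0.80 for Dhdds, 1.58 for Mef2d, 1.85 for Kcnd3, -1.70 for Cad and -1.03 for Msto1. The limma test of these differences gave adjusted p = 0.153 for Cyp2b10 and 0.107 for the other 7, so none passed. The silent-gene index lay on opposite sides in the same way. With it as a covariate no probe passed between the genotypes. Mef2d, Kcnd3, Cad and Msto1 kept the sign of their difference under all 31 alternatives, that covariate among them. For Cyp2b10, Col6a2, B4galt2 and Dhdds the part of the index was not followed gene by gene.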

How the results depend on the processing

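The number of arrays and the spread between mice of 1 group limit what can be seen here, and arrays carry no depth. The mean effect stayed at 0 probes under every alternative except within array set A alone, where 1 passed. In null mice 0 passed, against 1 after cyclic loess, 1 among probes above the median, 8 within array set B alone, 31 with array weights and 0 to 1 without 1 array (1 without water replicate 4). Set B holds 1 null water array, which is assumed there to vary like the other groups, as are the lone methylcellulose arrays of set A. In wild type 0 passed, against 9 with array weights and 0 to 4 without 1 array (4 without water replicate 1 and 1 without methylcellulose replicate 1). Between the genotypes 2 probes passed, against 0 on the 15 vehicle arrays alone, 0 within array set A alone, 0 within set B alone, 0 with the silent-gene index and 0 with it and the array set together. That count was 4 without the array labelled wild type with PFOA at 1 mg/kg replicate 3, 4 among probes above the median, 4 with an intensity trend and robust prior, 2017 with array weights and 0 to 1083 without 1 vehicle array. Pirinixic acid against PFOA in null mice gave 22 probes, 1 against 1 mg/kg alone and 61 against 3 mg/kg alone. The causes were not tested.

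The replicate numbers were also used as a block. Deviations from group means of same-numbered arrays correlated at 0.201, 0.204 and 0.095 in wild type and 0.134, 0.071, -0.077 and 0.072 in null, and 5 of the 7 arrays correlated best with their own number. Not every pair was above 0.1, so the numbers were not taken as pairs, though these values leave a hint of shared numbers. With the replicate block 3 probes passed between the genotypes and 0 in the other 3 comparisons, and the mean effect was -2.53 for Arntl (adjusted p = 0.608) and 2.26 for Dbp (adjusted p = 0.563).

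Of 55 named genes, 37 kept the sign of their mean effect under all 32 alternatives. Within array set A alone it turned for Cry1 (0.34), Nr1d1 (-0.45), Nr1d2 (-0.11), Sqle (0.24), Igfbp1 (-0.17), Cyp4a14 (-1.32), Acot1 (-0.12), Fgf21 (-0.59) and Oasl1 (0.24), and within set B alone for Scd1 (0.49) and Ehhadh (0.034). With the clock index, which is built from Arntl and Dbp, it turned for Nr1d1 (-0.091), Nr1d2 (-0.37), Dbp (-0.048), Usp2 (-0.069), Nfil3 (0.011), Cyp4a14 (-0.55), Pdk4 (0.49), Cyp7a1 (-0.19) and Cyp2b10 (0.027). With array set as a block it turned for Igfbp1 (-0.083, and -0.094 with the silent-gene index added), and with array weights for Nr1d1 (-0.0043). Without 1 array it ran from -0.045 to 0.27 for Acot1, from -0.38 to 0.13 for Cyp2b10, from -0.0030 to 1.26 for Cyp4a14, from -0.32 to 0.076 for Hsd3b5, from -0.095 to 0.30 for Igfbp1 and from -0.059 to 0.18 for Nr1d1. With array weights Col6a2 (-1.72) and B4galt2 (-2.41) passed in wild type and Dhdds (-0.70), Lum (-0.83) and Ifi35 (-0.54) in null.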

Other observations

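The clock genes also varied with the replicate number. Dbp was lowest on the array numbered 3 in 8 of the 10 groups of the series, both water groups among them. It was lowest on the array numbered 1 in the other 2, which are the methylcellulose vehicle groups of both genotypes. Usp2 was lowest on number 3 in 8 of 10 groups as well, and Arntl was highest on it in 7 of 10. Without the group of the array that goes against its label these counts were 7, 7 and 6 of 9. The numbers come from the labels, which do not say what they mark, and this was noticed after the values were seen. Wild type with methylcellulose has 3 arrays, numbered 1 to 3. Among the vehicle arrays number 3, Dbp read 17.80 in null with methylcellulose, 13.15 in null with water, 17.86 in wild type with methylcellulose and 11.47 in wild type with water. Among those numbered 1 it read 15.28 and 16.31 in null, and 17.75 and 17.69 in wild type, in the same order of vehicles.

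Arntl and the silent-gene index were not related over the 15 vehicle arrays, with Pearson's r of -0.129 (permutation p = 0.641, the same after adjustment over 3 relations) and Spearman's rho of -0.046 (permutation p = 0.87). Within array set A r was 0.169 (n = 7), within set B -0.015 (n = 8), and without the 2 arrays farthest in Arntl -0.126.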
